A study of Saccharomyces cerevisiae with 7 samples.

Results

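Transcript levels of 35 genes for heat shock chaperones and their partners were followed in budding yeast, Saccharomyces cerevisiae, on 7 Affymetrix Yeast Genome 2.0 arrays. The genes were taken from a list of cytosolic and mitochondrial chaperones by symbol, with the brightest probe set standing for a gene. All 35 were measured, among 5449 S. cerevisiae genes in all. The arrays held scc2-4 cells at 37C (2 arrays), sth1-3 cells at 37C (2 arrays), wild type cells at 37C (2 arrays) and wild type cells at 25C (1 array). Cells were grown in rich medium with 2% glucose until the OD600 reached 0.25, and those labelled 37C then spent 2 h at that temperature. The growth protocol of the 25C sample speaks of 37C too, so its temperature rests on its title alone. The scc2-4 strain (Y4251) was MATa and carried the temperature-sensitive allele of the cohesin loader subunit Scc2 together with Scc1-Pk9::TRP1 and Sth1-9myc::URA3. The sth1-3 strain (Y4343) was MATα and carried a temperature-sensitive allele of Sth1, the ATPase of the RSC nucleosome remodeller, together with Scc2-Pk9::TRP1. The wild type (YK700) was MATa with the markers ura3-52, leu2-3, 112, his3-11,15, ade2-1, can1-100 and trp1-1, and its label names no tagged protein. Each genotype was thus 1 strain, and the tags and, for sth1-3, the mating type differed along with the allele. None of the 7 a-specific genes and 1 of the 6 alpha-specific genes (HMLALPHA1, on 1 sth1-3 array) lay above background, so the mating type labels could not be checked here.

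Chaperones bind unfolded proteins and help them to fold, keep them from clumping or pull them out of aggregates. In yeast cytosol, Hsp70 proteins work with J proteins (Hsp40) and with nucleotide exchange factors, and hand some clients to Hsp90, whose cycle is tuned by a set of co-chaperones. Hsp104 and the small heat shock proteins act on aggregates, and a separate Hsp70 and chaperonin system folds proteins inside mitochondria. Many of these genes are targets of the heat shock factor Hsf1, and their transcripts are known to climb within minutes of a shift from 25C to 37C and then to decline as cells adapt.

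Signal was weak and the arrays fell into sets. A value is a log2 signal, and background is the 95th percentile of the probe sets for fission yeast (Schizosaccharomyces pombe) on the same array, which lay at 9.94 to 10.07. Between 8.06% and 12.9% of all genes lay above it. Bacterial hybridisation controls averaged 12.6 to 12.8 on scc2-4 replicate 1, sth1-3 replicate 1 and the 25C array of wild type (the 3-array set), and 11.7 to 11.8 on replicate 2 of either mutant and both wild type 37C arrays (the 4-array set). The excess of 3' over 5' signal of 25S ribosomal RNA was 3.03 to 4.16 in the 3-array set, against 0.30 to 0.69 in the 4-array set, whereas for ACT1 mRNA it was -0.31 to 0.32 and 0.21 to 1.60. Each mutant thus had an array in either set, while wild type had 25C in the one and 37C in the other, so in wild type the temperature and the array set cannot be told apart. Signal on these arrays cannot separate RNA per cell from the share of a transcript in the labelled material.

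The number of chaperone genes above background followed the sets. It was 11 on scc2-4 replicate 1, 13 on sth1-3 replicate 1 and 15 on the 25C array, against 4 on scc2-4 replicate 2, 5 on sth1-3 replicate 2, and 4 and 6 on the wild type 37C arrays. SSA4, SSE2 and STI1 were above background on all 7 arrays, 13 genes on 1 to 6 arrays, and 19 on none. Of the 13, SSA2, SSA3, SSE1, SSB1, SSZ1, AHA1, HCH1, HSP60 and HSP10 were above it only on arrays of the 3-array set. The heat map of the 35 genes shows this as 3 columns with more dots and warmer shades.

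**Figure D1:**
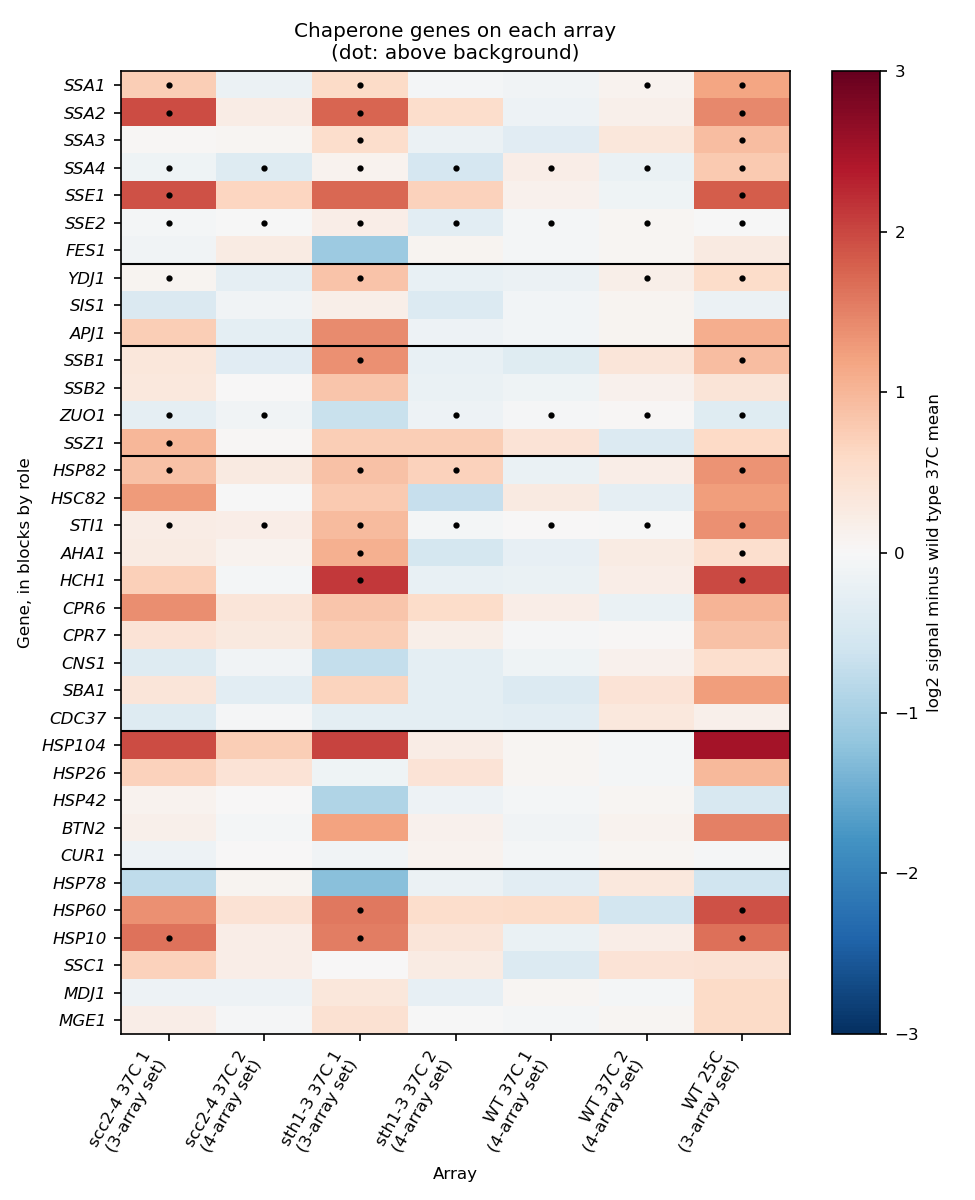
Log2 signal of the 35 chaperone genes (rows, in blocks by role) on the 7 arrays (columns), minus the mean of the wild type 37C arrays; a dot marks a value above the background of its array. The scc2-4 replicate 1, sth1-3 replicate 1 and wild type 25C columns hold 11, 13 and 15 dots, and the other 4 columns hold 4 to 6.

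Set against wild type at 37C, chaperone genes lay slightly higher in both mutants, and none passed the test. In scc2-4 the median difference over the 35 genes was 0.17 on the log2 scale (25 higher, 10 lower), beside -0.01 over all genes. No chaperone gene was called by limma (adjusted p = 0.998 for each), where 0% of all genes were. In sth1-3 the median was 0.26 (25 higher, 10 lower), beside 0.03 over all genes, and again none was called (adjusted p = 0.824 to 0.999), with 0% of all genes called. Both comparisons use the same wild type 37C arrays.

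Counts of genes whose arrays did not overlap between the groups gave the same picture. Both scc2-4 arrays lay above both wild type 37C arrays in 9 of the 35 genes (25.7%), against 15% of all genes, and below them in 3, against 14.1%. Both sth1-3 arrays lay above them in 9 (25.7%), against 18% of all genes, and below in 3, against 18.8%. At an unadjusted p under 0.05 the count was 1 higher in either mutant, SSE1, where 0.899% of all genes were higher in scc2-4 and 2.06% in sth1-3. It was 0 lower in either, against 0.349% and 1.73%. Without replicate 2 of a mutant, only its array of the 3-array set is set against wild type 37C arrays of the 4-array set. Strain and array set then change together. The median difference was 0.74 in sth1-3 and 0.32 in scc2-4, beside 0.11 and 0.01 over all genes.

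These shifts differed between the array sets. Measured from the mean of wild type at 37C, the median chaperone gene lay at 0.32 on scc2-4 replicate 1 and at 0.02 on replicate 2, and at 0.74 on sth1-3 replicate 1 and -0.14 on replicate 2. Replicate 2 of each mutant lies in the same set as the wild type 37C arrays. There scc2-4 lay above both wild type arrays in 10 of the 35 genes (26.9% of all genes did) and below both in 7 (26.8%), and sth1-3 above in 12 (27.6%) and below in 14 (36.5%). Those shares lie near the background. When the fit held the array set as a term, the medians were -0.06 and -0.002, beside -0.06 and -0.02 over all genes, and again no chaperone gene was called (adjusted p = 1.00 for each, limma), against 0.128% and 0.184% of all genes.

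In wild type cells, where temperature and array set cannot be told apart, most chaperone genes read lower on the 37C arrays than on the 25C array. The median difference was -0.88 (6 higher, 29 lower), beside -0.17 over all genes. When the array set was a term it was -0.34 (11 higher, 24 lower), beside -0.07 over all genes. That fit took the set difference from the replicates of the mutants alone, since wild type had no temperature in both sets. It assumes that this difference holds unchanged in wild type, here and for the single genes below, which was not tested. Both 37C arrays lay below the 25C array in 28 of the 35 genes, against 50.1% of all genes, and above it in 4 (SIS1, ZUO1, HSP42 and HSP78), against 31.1%. None was called by limma (adjusted p = 0.449 to 0.984), with 0% of all genes called. At an unadjusted p under 0.05, 10 were lower, against 6.94% of all genes, and 0 higher, against 3.25%: SSA1, SSE1, HSP82, STI1, HCH1, HSP104, HSP26, BTN2, HSP60 and HSP10. That count was 1 when the array set was a term, 6 with the arrays centred on the median gene, 6 with a replicate block, 3 without wild type 37C replicate 1 and 4 without wild type 37C replicate 2. A fit to the 3 wild type arrays alone called 13 of the 35, all lower, and 16.7% of all genes (11.4% lower, 5.34% higher). That fit had 1 residual degree of freedom and gave all genes a common spread, so genes that vary more than most get p-values that are too low.

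**Figure D2:**
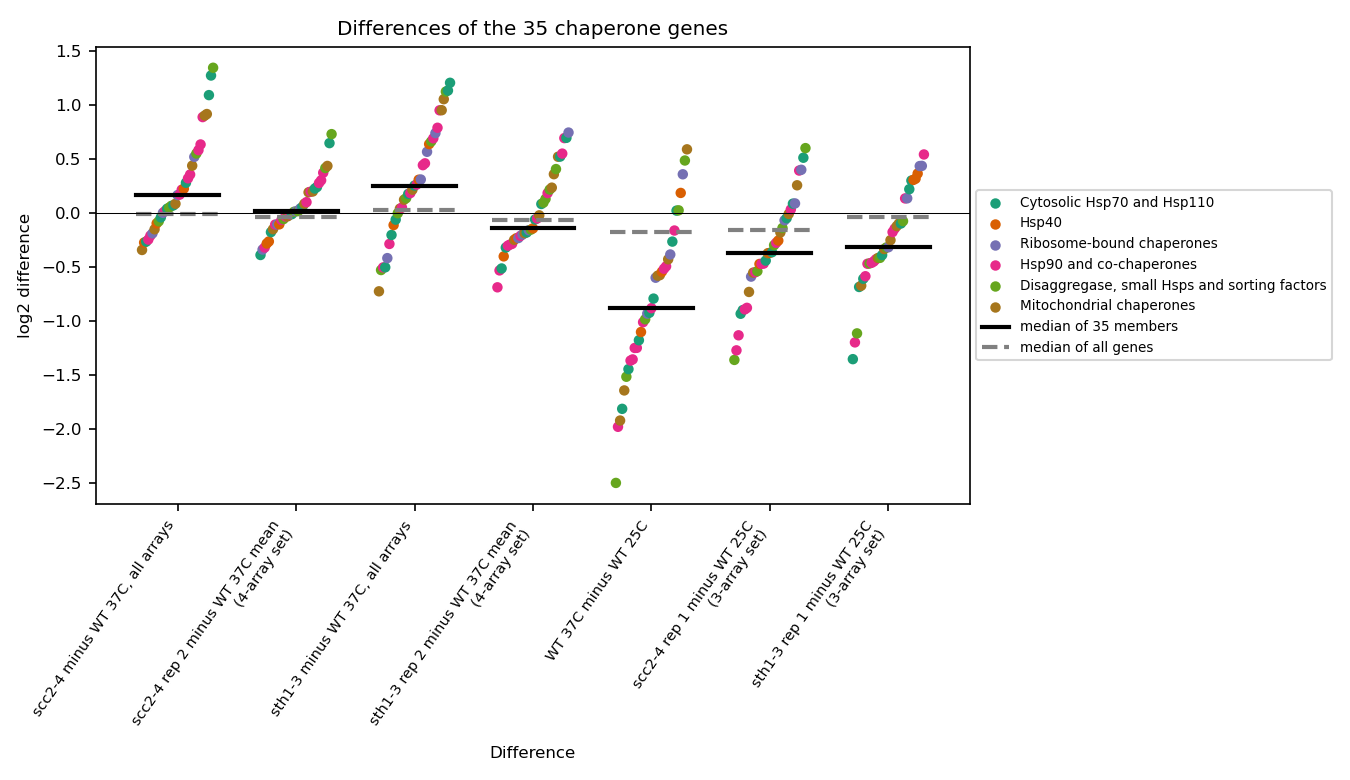
Log2 differences of the 35 chaperone genes (points, coloured by role and sorted within each column) in the 3 comparisons and in differences within an array set; black bars are the medians of the 35 genes and grey dashed bars those of all genes. The medians are 0.17 and 0.26 for the mutants against wild type at 37C, 0.02 and -0.14 for their replicates 2 within the 4-array set, -0.88 for wild type at 37C against 25C, and -0.37 and -0.32 for the mutant replicates 1 at 37C against wild type at 25C within the 3-array set.

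A comparison of 37C with 25C within the 3-array set sets a mutant against wild type. On scc2-4 replicate 1 the median chaperone gene lay 0.37 below the wild type 25C array (8 higher, 27 lower), where the median of all genes was -0.16. On sth1-3 replicate 1 it was -0.32 (10 higher, 25 lower), against -0.04 over all genes. STI1, HCH1 and BTN2 lay over 1 log2 unit lower on scc2-4 replicate 1 (3.1% of all genes did), and FES1, CNS1 and HSP26 on sth1-3 replicate 1 (2.02%). No chaperone gene lay over 1 log2 unit higher on either, against 1.49% and 0.771% of all genes. These are differences of single arrays, without a test, in which strain and temperature change together.

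The cytosolic Hsp70 genes came in a pair that is known to be expressed at all temperatures (SSA1 and SSA2) and a pair known to be induced by heat (SSA3 and SSA4). SSA1 (YAL005C) measured 10.79 and 9.88 in scc2-4, 10.63 and 10.00 in sth1-3, 9.94 and 10.17 in the wild type at 37C, and 11.23 in wild type at 25C. SSA2 (YLL024C) measured 10.60 and 8.87 in scc2-4, 10.38 and 9.16 in sth1-3, 8.48 and 8.80 in the wild type at 37C, and 10.08 in wild type at 25C. All mutant arrays of SSA2 lay above both wild type 37C arrays, by 1.09 ± 0.61 in scc2-4 and 1.14 ± 0.61 in sth1-3 (log2 difference, SE). The larger part of that stood on replicate 1, since replicate 1 exceeded replicate 2 by 1.73 in scc2-4 and by 1.22 in sth1-3, and the differences were 0.35 and 0.40 when the array set was a term. SSA1 arrays of the mutants overlapped with wild type at 37C, and its wild type level was 2.26-fold lower at 37C, where 1 of the 2 arrays was above background, than at 25C (adjusted p = 0.449, limma). On the log2 scale that is -1.18, or -0.41 when the array set was a term. The proteins of SSA1 and SSA2 are nearly identical, and how far their probe sets share signal was not tested.

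The heat-induced pair showed no higher level at 37C than at 25C. SSA3 (YBL075C) measured 9.58 and 9.61 in scc2-4, 10.09 and 9.37 in sth1-3, 9.21 and 9.90 in the wild type at 37C, and 10.48 in wild type at 25C. SSA4 (YER103W), above background throughout, measured 10.52 and 10.27 in scc2-4, 10.77 and 10.15 in sth1-3, 10.86 and 10.45 in the wild type at 37C, and 11.45 in wild type at 25C. The 25C array was the highest for both. Wild type at 37C was at least 1.37-fold lower than at 25C for SSA3, where 37C has only a bound, and 1.73-fold lower for SSA4 (adjusted p = 0.456 and 0.465, limma). The log2 differences of -0.92 and -0.79 were -0.58 and -0.36 when the array set was a term. In the mutants SSA4 lay at -0.26 ± 0.36 and -0.20 ± 0.36 against wild type at 37C, and arrays overlapped.

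SSE1 and SSE2 encode Hsp110 proteins, exchange factors of cytosolic Hsp70, and they behaved differently on these arrays. SSE1 (YPL106C) measured 10.03 and 8.78 in scc2-4, 9.85 and 8.83 in sth1-3, 8.26 and 7.99 in the wild type at 37C, and 9.94 in wild type at 25C. SSE2 (YBR169C) measured 10.58 and 10.64 in scc2-4, 10.85 and 10.33 in sth1-3, 10.60 and 10.70 in the wild type at 37C, and 10.62 in wild type at 25C. SSE1 read 1.27 ± 0.50 higher in scc2-4 (adjusted p = 0.998, limma) and 1.21 ± 0.50 higher in sth1-3 (adjusted p = 0.824), or 0.71 and 0.64 when the array set was a term. On replicate 2, in the same array set as the wild type 37C arrays, it still lay 0.65 above their mean in scc2-4 and 0.70 in sth1-3, though not above background, and in sth1-3 neither array was. SSE2 stayed within 10.33 to 10.85 on all 7 arrays, with groups that overlapped in all 3 comparisons. FES1, another exchange factor, was not above background on any array and ranged from 7.47 to 8.82.

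Of the J proteins, YDJ1, the main cytosolic partner of Hsp70, was above background on 4 arrays. YDJ1 (YNL064C) measured 9.97 and 9.64 in scc2-4, 10.75 and 9.67 in sth1-3, 9.73 and 10.07 in the wild type at 37C, and 10.45 in wild type at 25C. Arrays of both mutants overlapped with wild type at 37C (-0.10 ± 0.42 and 0.31 ± 0.42). SIS1, an essential J protein, and APJ1, one linked to disaggregation, lay below background throughout, at 8.11 to 8.73 and 8.10 to 9.80.

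The ribosome-bound chaperones meet new proteins as they leave the ribosome. SSB1 and SSB2 are the Hsp70 pair there, and ZUO1 and SSZ1 form the complex that drives them. ZUO1 (YGR285C) measured 10.17 and 10.33 in scc2-4, 9.76 and 10.28 in sth1-3, 10.41 and 10.47 in the wild type at 37C, and 10.08 in wild type at 25C. It ran opposite to most chaperone genes. Every array of the 3-array set read lower than any of the 4-array set. Its mutant arrays all lay below both wild type 37C arrays (-0.19 ± 0.33 and -0.42 ± 0.33, or -0.02 and -0.25 when the array set was a term). Wild type was 0.36 ± 0.40 higher at 37C than at 25C (0.02 when the array set was a term). SSZ1 (YHR064C) measured 10.14 and 9.18 in scc2-4, 9.88 and 9.89 in sth1-3, 9.55 and 8.73 in the wild type at 37C, and 9.74 in wild type at 25C. It was above background only on scc2-4 replicate 1, and both sth1-3 arrays lay above both wild type 37C arrays by nearly the same value.

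SSB1 depended on its probe set. The brighter one on average measured 9.72 and 9.04 in scc2-4, 10.74 and 9.14 in sth1-3, 9.00 and 9.75 in the wild type at 37C, and 10.30 in wild type at 25C. The other one, marked by its ID as shared between transcripts, measured 10.64 and 8.68 in scc2-4, 11.17 and 8.92 in sth1-3, 8.38 and 7.97 in the wild type at 37C, and 10.86 in wild type at 25C. Against wild type at 37C the difference was 0.003 and 0.57 in scc2-4 and sth1-3 by the first, and 1.48 and 1.87 by the shared probe set. No direction is given for SSB1 for that reason. SSB2, whose protein is nearly identical to that of SSB1, was below background throughout at 8.09 to 9.11.

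HSP82 and HSC82 encode Hsp90, the heat-induced and the constitutive copy. HSP82 (YPL240C) measured 10.46 and 9.86 in scc2-4, 10.46 and 10.27 in sth1-3, 9.37 and 9.78 in the wild type at 37C, and 10.93 in wild type at 25C. HSC82 (YMR186W) was not above background on any array, with 9.94 and 8.65 in scc2-4, 9.45 and 7.97 in sth1-3, 8.94 and 8.38 in the wild type at 37C, and 9.91 in wild type at 25C. HSP82 was the only one of the 35 genes above background on both arrays of a mutant (sth1-3) and on neither wild type 37C array. It was at least 1.27-fold higher in sth1-3 (log2 difference 0.79 ± 0.35, adjusted p = 0.824, limma). That bound averages both sth1-3 arrays, of which replicate 1 lies in the 3-array set. In scc2-4, where only replicate 1 was above background, the log2 difference was 0.58 ± 0.35 (adjusted p = 0.998), and no fold is given. On replicate 2 alone it lay 0.69 above the wild type 37C mean in sth1-3 and 0.28 in scc2-4. In wild type it was at least 1.87-fold lower at 37C than at 25C (adjusted p = 0.449, limma). When the array set was a term, the log2 differences of HSP82 were 0.59 in sth1-3, 0.38 in scc2-4 and -0.96 in wild type. HSC82 arrays of the mutants overlapped with wild type at 37C. The proteins of both genes are nearly identical, and how far their probe sets share signal was likewise not tested.

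STI1, which links Hsp70 to Hsp90, was above background on every array. STI1 (YOR027W) measured 10.53 and 10.49 in scc2-4, 11.23 and 10.24 in sth1-3, 10.31 and 10.27 in the wild type at 37C, and 11.66 in wild type at 25C. Both scc2-4 arrays lay just above the wild type 37C arrays (0.22 ± 0.39), and the sth1-3 arrays lay on either side of them. Its wild type level was 2.58-fold lower at 37C than at 25C (adjusted p = 0.449, limma). The log2 difference was -1.37, and -0.85 when the array set was a term (adjusted p = 1.00).

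The Hsp90 ATPase activators AHA1 and HCH1 peaked on the same pair of arrays. AHA1 (YDR214W) measured 9.82 and 9.68 in scc2-4, 10.64 and 9.05 in sth1-3, 9.32 and 9.83 in the wild type at 37C, and 10.09 in wild type at 25C. HCH1 (YNL281W) measured 8.96 and 8.18 in scc2-4, 10.36 and 8.04 in sth1-3, 8.04 and 8.45 in the wild type at 37C, and 10.23 in wild type at 25C. Both were above background only on sth1-3 replicate 1 and wild type at 25C. The replicates of sth1-3 differed by 2.33 in HCH1, more than in any other of the 35 genes, and those of AHA1 by 1.59.

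The remaining Hsp90 partners were below background on all arrays. They comprise the peptidyl-prolyl isomerases CPR6 (7.31 to 8.91) and CPR7 (7.36 to 8.28), the essential co-chaperone CNS1 (7.67 to 8.87), the p23 homologue SBA1 (7.74 to 9.39) and the kinase co-chaperone CDC37 (7.98 to 8.67). CPR6 and CPR7 lay higher on all 4 mutant arrays than on both wild type 37C arrays. Of all genes, 15% did so in scc2-4 and 18% in sth1-3. CPR6 stood at 0.89 ± 0.41 in scc2-4 and 0.69 ± 0.41 in sth1-3, or 0.56 and 0.36 when the array set was a term. For CPR7 the latter values were 0.19 and 0.30. CNS1 lay below both wild type 37C arrays on both sth1-3 arrays (-0.50 ± 0.33, or -0.33 with the set as a term), as 18.8% of all genes did. Over the 10 genes for Hsp90 and its partners, 0 were called in any of the 3 comparisons. All 10 lay lower in wild type at 37C than at 25C (median -1.13), where 3276 of 5449 genes did (median -0.17). When the array set was a term, 2 lay higher and 8 lower (median -0.43), beside a median of -0.07 over all genes. Only 4 of the 10 were above background on any array.

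**Figure D3:**
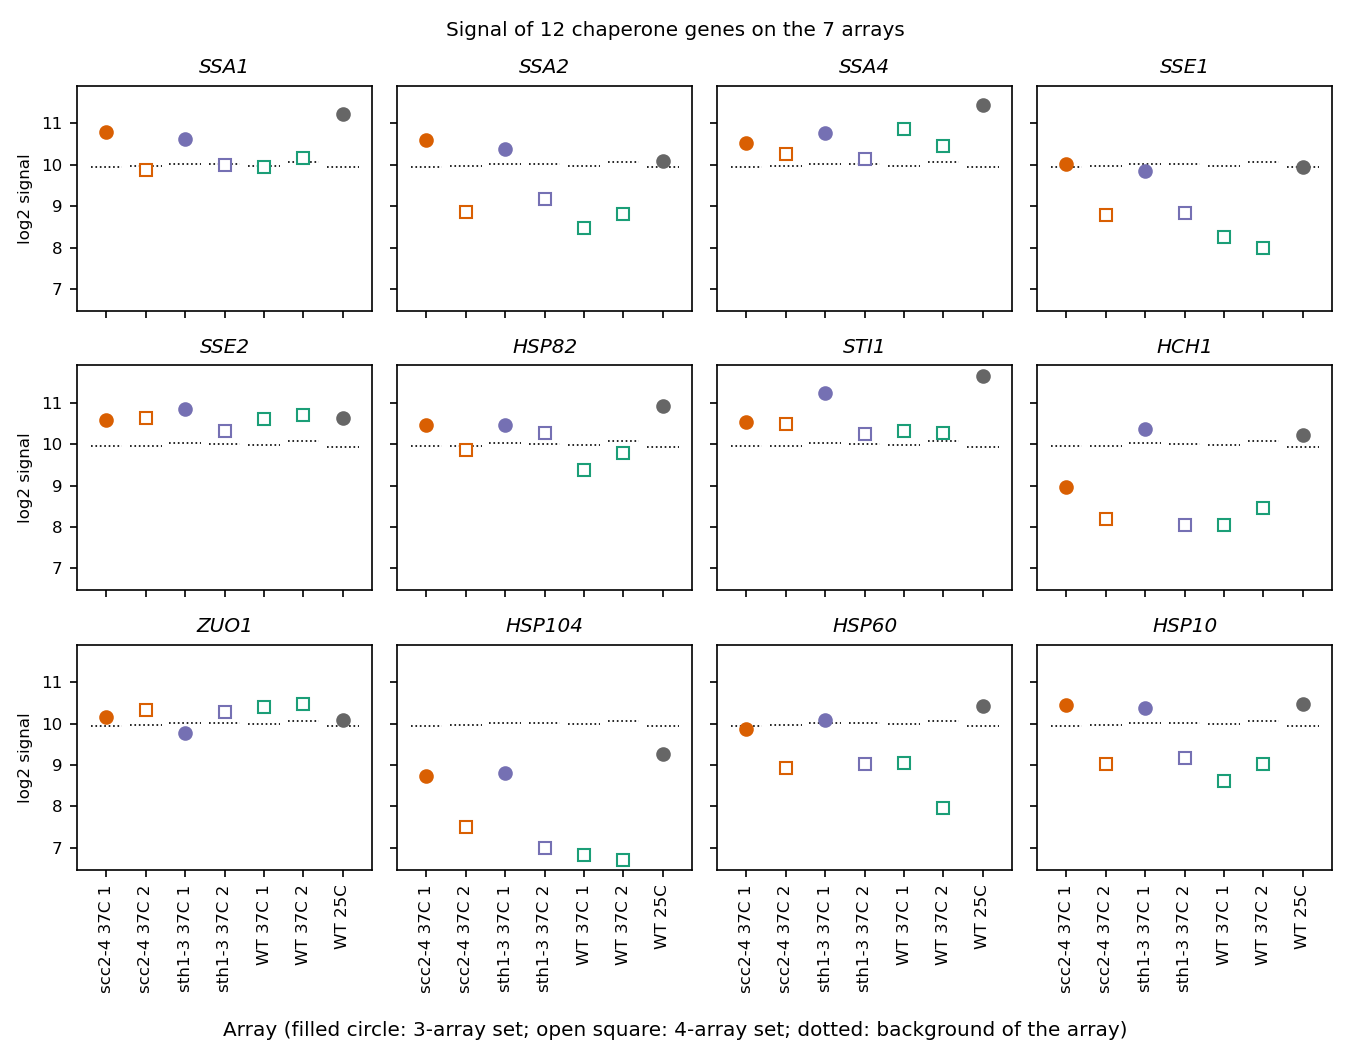
Log2 signal of 12 chaperone genes on each array, with filled circles for the 3-array set, open squares for the 4-array set and dotted lines for the background of each array; levels of different genes are not comparable. SSA1, SSA2, SSE1, HSP82, STI1, HCH1, HSP104, HSP60 and HSP10 are higher on the 3 filled circles than on the 4 open squares. ZUO1 is lower on the 3 filled circles than on the 4 open squares. SSA4 and SSE2 do not split by set, and SSE2 stays at 10.33 to 10.85.

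HSP104, the disaggregase, was not above background on any array. HSP104 (YLL026W) measured 8.73 and 7.50 in scc2-4, 8.80 and 6.99 in sth1-3, 6.83 and 6.71 in the wild type at 37C, and 9.27 in wild type at 25C. All 4 mutant arrays lay above both wild type 37C arrays (1.35 ± 0.62 in scc2-4 and 1.13 ± 0.62 in sth1-3), and the wild type difference between 37C and 25C was -2.50 ± 0.76 (adjusted p = 0.449, limma). These are differences between readings that were not above background, so they set no size on a change in transcript, and no fold is given. When the array set was a term they were 0.59, 0.36 and -0.98. Replicate 1 exceeded replicate 2 by 1.23 in scc2-4 and 1.81 in sth1-3.

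The small heat shock proteins, which hold unfolded proteins in aggregates, were also below background. HSP26 (YBR072W) measured 8.77 and 8.50 in scc2-4, 7.95 and 8.49 in sth1-3, 8.15 and 8.01 in the wild type at 37C, and 9.06 in wild type at 25C. HSP42 (YDR171W) measured 9.60 and 9.51 in scc2-4, 8.59 and 9.34 in sth1-3, 9.44 and 9.54 in the wild type at 37C, and 9.00 in wild type at 25C. HSP26 differed from most members in that the 3-array set did not read higher in sth1-3, and it was the 1 chaperone gene lower in wild type at 37C at an unadjusted p under 0.05 when the array set was a term (-1.12, adjusted p = 1.00, limma), where 1.3% of all genes were lower. None was higher, against 0.661% of all genes. HSP42 lay lower on both sth1-3 arrays than on both wild type 37C arrays (-0.53 ± 0.35, adjusted p = 0.824, limma). On replicate 2 alone it lay at -0.15 from the wild type 37C mean, and the difference was -0.36 when the array set was a term. BTN2 and CUR1, which sort misfolded proteins, ranged from 7.01 to 8.62 and from 6.71 to 6.97.

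Among mitochondrial chaperones, the chaperonin genes HSP60 and HSP10 were the members above background. HSP60 (YLR259C) measured 9.87 and 8.94 in scc2-4, 10.09 and 9.02 in sth1-3, 9.05 and 7.95 in the wild type at 37C, and 10.42 in wild type at 25C. HSP10 (YOR020C), its lid, measured 10.45 and 9.02 in scc2-4, 10.36 and 9.18 in sth1-3, 8.62 and 9.02 in the wild type at 37C, and 10.46 in wild type at 25C. Both read higher on every array of the 3-array set than on any of the 4-array set. So did SSA1, SSA2, SSE1, HSP82, STI1, HCH1 and HSP104, among others. HSP60 was above background on 2 arrays and HSP10 on 3. HSP10 was 0.92 ± 0.56 and 0.95 ± 0.56 higher in scc2-4 and sth1-3 than in wild type at 37C, with arrays that narrowly did not overlap (9.02 on both scc2-4 replicate 2 and wild type replicate 2), and within the 4-array set the difference was 0.20 and 0.36. In wild type, HSP60 was at least 1.32-fold and HSP10 at least 1.35-fold lower on the 37C arrays than on the 25C array (adjusted p = 0.449 each, limma). The log2 differences of -1.92 and -1.64 were -0.92 and -0.33 when the array set was a term, so the bound for HSP10 did not hold there.

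The mitochondrial Hsp70 system gave no value above background. SSC1 (YJR045C), the matrix Hsp70, measured 9.16 and 8.66 in scc2-4, 8.48 and 8.71 in sth1-3, 8.07 and 8.87 in the wild type at 37C, and 8.90 in wild type at 25C. Its partners MDJ1 (a J protein) and MGE1 (the exchange factor) ranged from 8.76 to 9.59 and from 6.38 to 7.01. HSP78, the mitochondrial disaggregase, ranged from 7.24 to 8.81 and was lowest on the mutant replicates 1, with replicate 1 minus replicate 2 at -0.86 in scc2-4 and -1.08 in sth1-3. The groups of SSC1, MGE1 and HSP78 overlapped in both mutant comparisons, and so did those of MDJ1 in sth1-3.

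How far the temperature difference in wild type resembled the array-set difference was read from the mutants, whose replicates share strain and temperature but not the set. Across the 35 genes, wild type at 37C minus 25C followed replicate 2 minus replicate 1 of the mutants (mean of both strains) with r = 0.81, and across all 5449 genes with r = 0.83. Genes are not independent replicates, and both axes set arrays of the 4-array set against arrays of the 3-array set. The median over the 35 genes was -0.88 for the wild type difference and -0.47 for the mutants, and over all genes -0.17 and -0.10. HSP104 stood at -2.50 against -1.52, HSP82 at -1.36 against -0.40, and HSP26 at -0.98 against 0.13. For SSA2 both were nearly equal, at -1.45 and -1.48. Once the array set was a term, 2383 of all genes read higher and 3066 lower in wild type at 37C, and no chaperone gene was called (adjusted p = 1.00 for each, limma), with 0.0734% of all genes called.

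**Figure D4:**
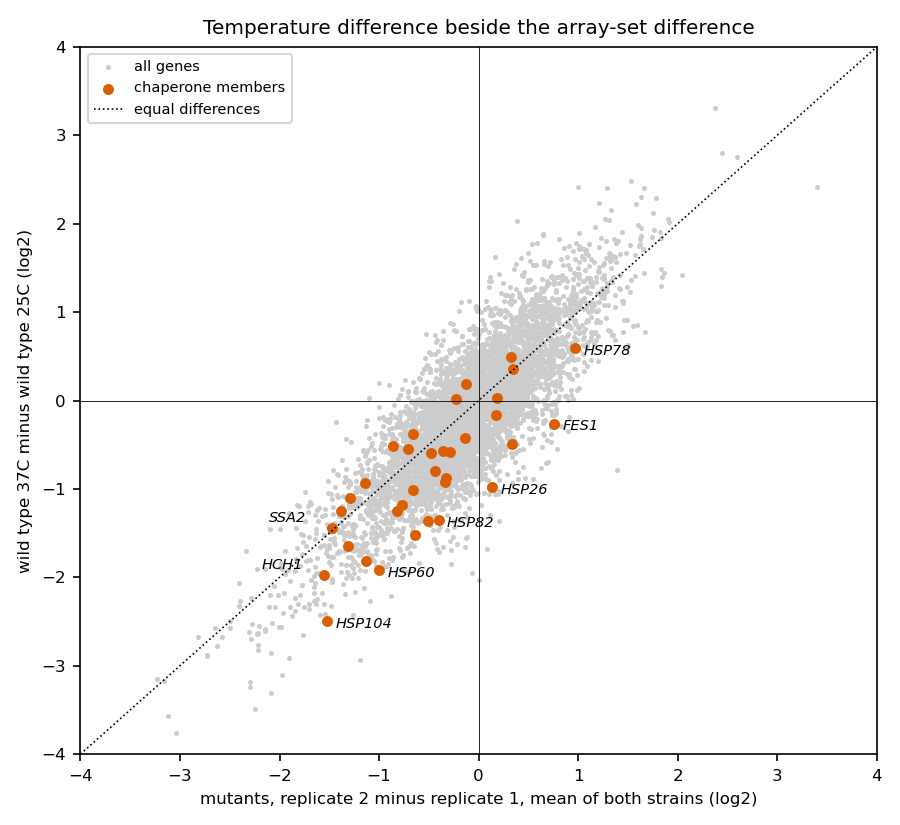
Wild type at 37C minus 25C (vertical, log2) against replicate 2 minus replicate 1 of the mutants, mean of both strains (horizontal, log2), for all genes (grey; 5 lie outside the axes) and the 35 chaperone genes (orange). The dotted line marks equal differences; HSP104, HSP82 and HSP26 lie below it and SSA2 on it.

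In a direct test of sth1-3 against scc2-4 no chaperone gene was called, where 0% of all genes were, and 0 of the 35 passed an unadjusted p under 0.05, against 0.385% of all genes. The smallest p among the 35 genes was that of HSP42 (-0.59 ± 0.35, adjusted p = 1.00, limma).

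Other folding genes, taken from lists chosen by function, showed no called member either. The 8 genes of the cytosolic chaperonin CCT, which folds actin and tubulin, had median differences of 0.35 in scc2-4 and 0.57 in sth1-3 (7 of 8 higher in each) and of -0.58 for wild type at 37C against 25C (7 of 8 lower). The medians over all genes were -0.01, 0.03 and -0.17. When the array set was a term, the CCT medians were 0.12 (5 of 8 higher), 0.18 (6 of 8 higher) and -0.25 (7 of 8 lower). CCT2 and CCT6 were the 2 CCT genes above background on any array. The 6 genes of prefoldin, which delivers clients to CCT, had medians of 0.04, 0.001 and -0.24 in the same order. For 9 other J proteins and Hsp70 partners these were 0.06, 0.21 and -0.56, for 4 other Hsp90 partners -0.05, -0.18 and 0.51, for 3 genes of the nascent chain complex -0.14, 0.26 and -0.44, and for 10 other mitochondrial folding genes -0.04, -0.20 and -0.05. All members of these lists were measured, and 0 were called in each comparison. At an unadjusted p under 0.05 stood 1 CCT gene, 1 other J protein or Hsp70 partner and 2 other Hsp90 partners in the wild type comparison, and 1 mitochondrial folding gene in sth1-3. Of all genes, 10.2% stood there in the wild type comparison, 1.25% in scc2-4 and 3.78% in sth1-3.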

How the data were processed

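Per the labels, total RNA was amplified, labelled and hybridised to 7 one-colour arrays. The authors deposited a log2 intensity for each probe set on each array, and these were used unchanged (4.97 to 14.7). The submitters' processing notes name RMA and affy, and whether all arrays were normalized together is not given in the sources used here. Of 10928 probe sets, 5498 had 1 S. cerevisiae symbol in the platform annotation and 1746 had 1 S. pombe symbol, 1 had several and 3683 were unnamed. Symbols were updated through the R64 gene table. The brightest probe set stood for a gene. Groups came from the titles. For the 25C sample the title is also what gives its temperature, since its growth protocol speaks of 37C. Nothing in the labels says that replicates were separate cultures. The p-values reflect only the spread between arrays, which may be technical, and the number of arrays limits precision.

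All 7 arrays were fitted in limma 3.58.1 (lmFit, eBayes) under R 4.3.3 (two-sided, Benjamini-Hochberg over 5449 genes, threshold 0.05, 3 residual degrees of freedom), and an adjusted p comes from this fit. SE is limma's. Where no array of a group was above background, only a bound is known, and the fold is given as "at least". The 35 genes, the lists and the array-set alternatives were chosen with earlier results of these data known. All members above background on any array, and the main heat shock chaperones, were to be named with their values, and the others by range. Promoter and protein sequences were not used here. The fit was tested on simulated data. Alternatives were a replicate block, eBayes options, a filter on dim genes, other normalizations, other probe set rules, the array set, the groups compared alone, a lower background and leaving out each 37C array.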

Additional observations from a re-analysis of the deposited data

How the results depend on the processing

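In the comparisons of each mutant with wild type at 37C and of wild type at 37C with 25C, no chaperone gene was called by limma under the alternatives run, except 13, all lower, where wild type at 37C and 25C were fitted alone (911 of all genes called). The direct test of sth1-3 against scc2-4 was run in 1 setting. At an unadjusted p under 0.05 stood 10 chaperone genes for wild type and 1 for either mutant. The shares of all genes were 1.25% for scc2-4, 3.78% for sth1-3 and 10.2% for wild type. Where no 37C group was cut to 1 array, the alternatives moved the wild type count between 1 and 18. The scc2-4 count then ran from 0 to 5, and the sth1-3 count from 0 to 7. The 18 came from wild type fitted alone, where the count over all genes rose as well. The 5 and 7 came from the replicate block with exchanged wild type numbers, described below. No share of all genes is given for them, so they are not read as a result for chaperones. Over all genes, the array set as a term called 4 genes in wild type at 37C against 25C, 7 in scc2-4 and 10 in sth1-3, and the 4-array set alone called 6 in scc2-4 and 13 in sth1-3. That last fit had 1 array per mutant and 1 residual degree of freedom, with a common spread for all genes, so its p-values are open to the same doubt as those of wild type alone. The array set moved the wild type median of the chaperone genes to -0.34, and the 4-array set alone moved the sth1-3 median to -0.14. Leaving out 1 array gave 0 to 1 genes called in wild type and in scc2-4. It gave medians of -0.88 to -0.83 in wild type, 0.02 to 0.32 in scc2-4 and -0.14 to 0.74 in sth1-3. The lowest sth1-3 value came without its replicate 1, and the highest without its replicate 2. The scc2-4 median was 0.02 without its replicate 1 and 0.03 without wild type replicate 1. Single differences changed sign in 10 to 15 of the 35 genes in the 4-array set alone, in 9 to 14 with the array set as a term, in 0 to 15 when 1 array was left out and in 0 to 2 under the other alternatives. The replicate block, with numbers that only name the arrays, called 1 gene in scc2-4 and 1 in sth1-3. Replicate 1 minus replicate 2 correlated across genes at 0.55 between the mutants, and at -0.20 and -0.36 between scc2-4 or sth1-3 and wild type. With the wild type numbers exchanged in that block, a choice made after seeing the data, 3 and 4 genes were called. The cause of these changes was not tested. Background limits the depth: 16 of the 35 genes passed the 95th percentile on any array, and 18 passed the 90th.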

Other observations

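HSF1, the heat shock factor itself, measured 9.48 and 10.79 in scc2-4, 9.30 and 10.56 in sth1-3, 11.13 and 10.71 in the wild type at 37C, and 9.99 in wild type at 25C. It was thus higher on the 4-array set, where most chaperone genes read lower. Its difference from wild type at 37C was -0.78 in scc2-4 and -0.99 in sth1-3, and wild type was 0.93 higher at 37C than at 25C (adjusted p = 0.998, 0.824 and 0.531, limma). UBI4, the polyubiquitin gene, ran the other way and measured 10.00 and 7.93 in scc2-4, 9.32 and 8.13 in sth1-3, 7.68 and 7.68 in the wild type at 37C, and 9.63 in wild type at 25C. It was above background only on scc2-4 replicate 1. HSF1 and UBI4 stand on a list of 4 genes for Hsf1 and stress regulation, with MBF1 and RPN4. When the array set was a term, all 4 read lower in wild type at 37C than at 25C (-1.03 to -0.16), so HSF1 was no longer higher there. Against wild type at 37C the 4 genes then lay at -0.49 to 0.51 in scc2-4 and at -0.35 to 0.23 in sth1-3.

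PIH1, a subunit of the R2TP complex that works with Hsp90, measured 10.14 and 11.22 in scc2-4, 9.88 and 11.06 in sth1-3, 11.29 and 11.16 in the wild type at 37C, and 9.63 in wild type at 25C. It was 1.60 higher in wild type at 37C than at 25C (adjusted p = 0.449, limma), and within either mutant the array of the 4-array set was likewise the higher one. MBF1, a transcriptional coactivator, measured 9.80 and 8.73 in scc2-4, 10.24 and 8.61 in sth1-3, 8.85 and 9.32 in the wild type at 37C, and 10.60 in wild type at 25C. When the array set was a term, the 4 other Hsp90 partners, PIH1 among them, lay at -0.50 to 0.82 in wild type at 37C against 25C (3 higher, 1 lower). MBF1, on the list with HSF1, then lay within -1.03 to -0.16. The cause of these differences was not tested.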
